A study of Mus musculus with 24 samples.

Results

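The mitochondrial ribosomal proteins described here are encoded by 78 nuclear genes of the 19015 genes in the deposited table, chosen by symbol as those that start with Mrpl or Mrps followed by a digit. Of these, 49 carry a large subunit symbol (Mrpl) and 29 a small subunit symbol (Mrps). RNA came from female mice aged 12 weeks that were either knockout (KO) or wildtype (WT) for Prxl2a, which codes for a peroxiredoxin-like redox protein. Neither the allele nor the strain is named in the sources used here. For each genotype there were 3 libraries from each of 4 tissues, 24 in all: dorsal brown adipose tissue (BAT), inguinal adipose tissue (IAT, a white fat depot), brain and liver, all taken after perfusion with PBS. The design names 3 mice per genotype, so libraries of different tissues may share a mouse.

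The mitochondrial ribosome translates the few messages encoded by mitochondrial DNA, all of which specify subunits of the oxidative phosphorylation complexes. Its small subunit binds and decodes the message, and its large subunit joins the amino acids and anchors the particle to the inner membrane. All of its proteins are made in the cytosol and imported. Brown fat is rich in mitochondria, which it uses to make heat, whereas white fat mainly stores lipid.

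Library totals were 12327459 to 18257788 estimated counts, lowest in BAT. Prxl2a itself had 18.9 to 25.7 CPM (counts scaled to a common library size by TMM within a tissue) in KO BAT, against 471 to 502 CPM in WT BAT, and every KO library of every tissue was below every WT library of that tissue. All 8 hepatocyte markers reached 1 CPM in a liver library, all 10 markers of neurons and glia in a brain library and all 12 adipocyte markers in a BAT library, and at least 10 of the 12 did so in IAT. Some fat libraries carried RNA of other tissues: lymphocyte markers stood high in KO IAT libraries 1 and 3, and skeletal muscle markers in WT IAT libraries 1 and 2 and in WT BAT library 1. None of the 78 members was at 0 in a library, and all 78 passed the filter on low counts in every comparison.

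Among WT tissues, mitoribosomal messages were most abundant in BAT. Their summed level in TPM (which allows for gene length) was 12169 ± 143 TPM in WT BAT, 6842 ± 429 TPM in WT IAT, 5646 ± 56.2 TPM in WT brain and 3960 ± 150 TPM in WT liver (SD, n = 3 each). The 3 BAT libraries gave 12068, 12333 and 12108 TPM, far above the highest library of any other WT tissue, which was IAT library 1 at 7335 TPM. By mean TPM, 67 of the 78 genes were highest in BAT, 9 in brain, 2 in IAT and 0 in liver, and 66 were lowest in liver. In bulk tissue, fewer cells rich in mitochondria and less of these RNAs per cell cannot be told apart.

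**Figure D1:**
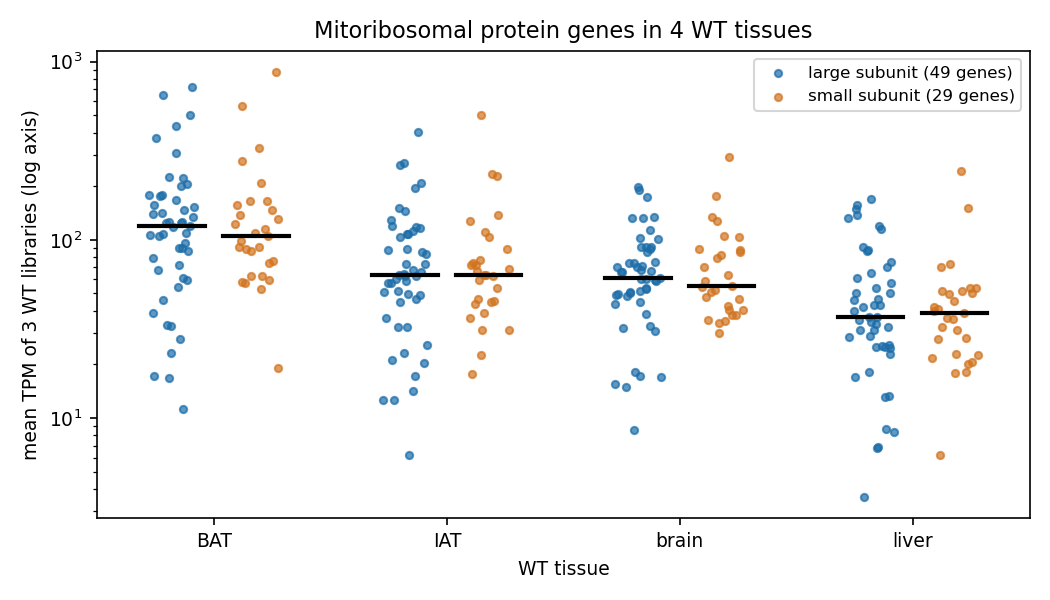
Mean TPM of each member in 3 WT libraries per tissue (log axis), with the 49 large subunit genes in blue, the 29 small subunit genes in orange and black bars at the median of the genes. The medians are highest in BAT, at 120 TPM for the large and 105 TPM for the small subunit, and lowest in liver, at 37.1 and 38.9 TPM.

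By TPM both subunits showed the same order of tissues. The median large subunit gene had 120 TPM in WT BAT, 63.7 TPM in WT IAT, 61.4 TPM in WT brain and 37.1 TPM in WT liver. The median small subunit gene had 105 TPM in WT BAT, 63.9 TPM in WT IAT, 54.8 TPM in WT brain and 38.9 TPM in WT liver. The ratio of summed large to summed small subunit TPM was 1.66 ± 0.052 in WT BAT, 1.60 ± 0.022 in WT IAT, 1.57 ± 0.008 in WT brain and 1.83 ± 0.044 in WT liver (SD, n = 3 each). The 3 liver libraries, at 1.80 to 1.88, lay above all 9 libraries of the other WT tissues. These sums follow the symbols. The small subunit sum therefore holds Mrps36 (563 TPM in WT BAT, 36.1 TPM in WT liver) and Mrps18a (166 and 45.6 TPM), whose proteins are placed elsewhere, as described below. The ratio without these genes was not computed, so the place of liver holds for the symbols only.

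In the fit of the 12 WT libraries, all 78 members differed between tissues, where 96.1% of all genes tested did (edgeR quasi-likelihood F-test, Benjamini-Hochberg adjusted p under 0.05, as throughout). BAT over IAT, 76 members were higher and 1 was lower, against a background of 26.7% of all genes higher and 30.2% lower. The median log2 fold change was 1.22 for the large subunit and 1.12 for the small subunit, and -0.04 for all 15810 genes tested. BAT over brain, 78 were higher and 0 lower, where 38.7% and 40.5% of all genes were, with medians of 1.99 for the large and 1.97 for the small subunit. BAT over liver, 70 were higher and 1 was lower, where 36% and 29.7% of all genes were, with medians of 0.73 and 0.80 beside 0.11 for all genes. Without the 3 muscle-rich WT fat libraries, 77 of 78 members were higher in BAT over IAT. That fit has 1 IAT library, assumed to vary like the other groups, and called 73 members.

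The place of liver depended on the scale. By the median of TMM-scaled CPM over the 12 WT libraries, the large subunit had 38.4 CPM in WT liver, 30.8 CPM in WT IAT and 18.7 CPM in WT brain, and the small subunit had 37.6, 28.2 and 15.2 CPM in these tissues. On that scale 70 of the 78 members were lowest in brain and 4 in liver. On the TMM scale 70 members were called higher and 2 lower in liver over brain, where 39.5% and 42.7% of all genes were, with medians of 1.21 for the large and 1.18 for the small subunit. On the log2(TPM + 1) scale the medians were -0.63 and -0.71 and 11 of the 78 were higher in liver, and with library totals alone they were 0.02 and 0.00. The median over all genes moved with them, at -0.09 by TMM, -1.61 by TPM and -1.27 by library totals. Relative to that median, the small subunit stood 1.28 above by TMM, 0.90 above by TPM and 1.28 above by library totals. BAT stood above each of the other 3 tissues, in both subunits, under all of these scales.

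**Figure D2:**
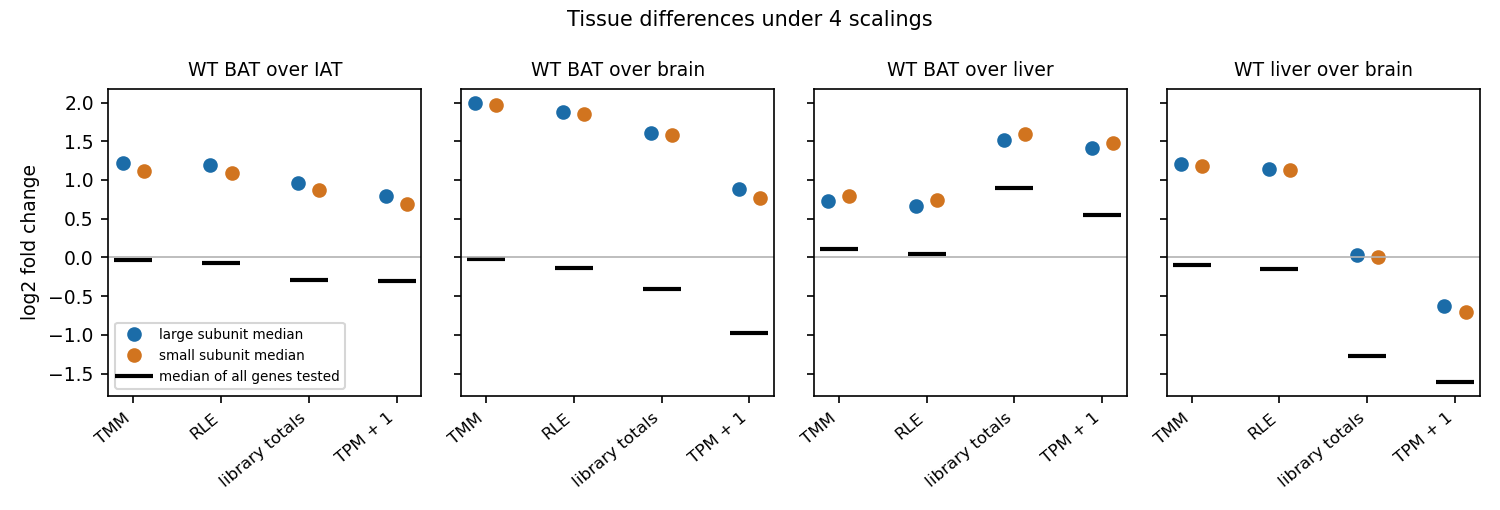
Median log2 fold change of the large (blue) and small (orange) subunit genes and of all genes tested (black bars) for 4 comparisons of WT tissues, each under 4 ways of scaling the libraries. The members lie above all genes in every panel, and for liver over brain they change sign between TMM (1.21 for the large subunit) and TPM (-0.63).

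Members differed widely in level. The most abundant by mean WT TPM were Mrps21, Mrps36 and Mrps18c of the small subunit and Mrpl42, Mrpl30 and Mrpl33 of the large subunit. Mrps21, whose protein is related to bacterial ribosomal protein S21, averaged 876 ± 46.9 TPM in WT BAT, 505 ± 12.6 TPM in WT IAT, 293 ± 13.0 TPM in WT brain and 245 ± 17.7 TPM in WT liver. The least abundant were Mrpl19, Mrpl17 and Mrpl57 of the large subunit and Mrps25, Mrps27 and Mrps11 of the small subunit. Mrpl19 averaged 11.2 ± 0.51 TPM in WT BAT, 6.22 ± 0.34 TPM in WT IAT, 14.95 ± 0.96 TPM in WT brain and 3.62 ± 0.17 TPM in WT liver (SD, n = 3 each).

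Mrps36 had the largest values of BAT over IAT and over liver. It had 510, 619 and 560 TPM in WT BAT, against 93.8, 91.7 and 82.2 TPM in WT IAT, 101, 112 and 104 TPM in WT brain and 38.7, 38.9 and 30.8 TPM in WT liver. Every BAT library was above every other WT library, and the log2 fold change was 3.05 (SE 0.13, adjusted p = 6.80e-08) over IAT, 3.59 (SE 0.13, adjusted p = 5.44e-10) over brain and 3.22 (SE 0.13, adjusted p = 2.48e-09) over liver in edgeR's test. Despite its symbol, the Mrps36 protein is known as a subunit of the 2-oxoglutarate dehydrogenase complex of the citric acid cycle. RefSeq lists 3 pseudogenes of Mrps36, and reads they share with it could be counted either way.

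Mrpl34, a large subunit gene related to bacterial L34, had the largest value of BAT over brain. It had 434, 458 and 421 TPM in WT BAT, against 115, 100 and 97.8 TPM in WT IAT, 73.4, 64.5 and 59.8 TPM in WT brain and 68.2, 67.0 and 75.4 TPM in WT liver. The log2 fold change was 2.46 over IAT, 3.91 over brain and 1.90 over liver. Mrpl4 (1.88 over IAT, 1.94 over liver) and Mrpl42 (1.84 and 1.63) of the large subunit and Mrps23 (1.53 and 1.51) and Mrps15 (1.01 and 1.64) of the small subunit completed the genes with the largest BAT over liver differences. Over brain, Mrpl51 (3.10), Mrps28 (3.30) and Mrps35 (3.33) also stood at the top.

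Mrps6, a small subunit gene related to bacterial S6, was the member called lower in BAT than in IAT. It had 88.6, 87.0 and 98.9 TPM in WT BAT, against 228, 201 and 277 TPM in WT IAT, 77.0, 72.2 and 87.3 TPM in WT brain and 20.3, 20.5 and 19.1 TPM in WT liver. The BAT and IAT libraries did not overlap, and the log2 fold change of BAT over IAT was -0.96 (SE 0.13, adjusted p = 1.14e-04). Mrps6 overlaps Slc5a3, a myo-inositol transporter gene that averaged 4.73 TPM in WT BAT and 13.6 TPM in WT IAT; no source used here says whether counting used strand, so reads of the overlap are uncertain.

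Mrpl52, Mrpl14 and Mrpl15 had the smallest BAT over liver values of the large subunit. Mrpl52 had 198, 212 and 210 TPM in WT BAT, 176, 230 and 223 TPM in WT IAT, 149, 144 and 104 TPM in WT brain and 165, 203 and 140 TPM in WT liver. The BAT libraries lay within the range of the IAT libraries and overlapped the liver libraries, and the log2 fold change was 0.29 (adjusted p = 0.217) over IAT and -0.45 (adjusted p = 0.0602) over liver. Mrpl15 was the member called lower in BAT over liver on the TMM scale (-0.31, adjusted p = 0.0360), a direction that turned on the TPM scale (0.39) and with library totals (0.49).

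Mrps25, Mrps26, Mrpl19 and Mrpl41 were highest in brain by TPM. Mrps25 had 19.5, 19.4 and 18.2 TPM in WT BAT, 17.8, 17.5 and 17.9 TPM in WT IAT, 36.7, 36.6 and 39.9 TPM in WT brain and 6.52, 6.49 and 5.61 TPM in WT liver. Brain was above all the other WT libraries by TPM, whereas on the TMM scale Mrps25 was slightly higher in BAT over brain (log2 fold change 0.20, adjusted p = 0.0367). Mrps25 overlaps Nr2c2, which averaged 34.8 TPM in WT brain, 1.997 TPM in WT BAT and 1.21 TPM in WT liver. Mrpl19 overlaps Gcfc2, which averaged 5.86 TPM in WT brain and 1.83 TPM in WT BAT. The brain values of Mrps25 and Mrpl19 are therefore uncertain without knowing whether counting used strand. No overlapping gene was found for Mrps26 or Mrpl41. Across the 12 WT libraries, each log2(TPM + 1) profile was compared with the median profile of all other members, of both subunits. In the large subunit the 2 profiles least like it were those of Mrpl14 (Pearson r 0.33) and Mrpl52 (0.34), followed by Mrpl15 (0.38). In the small subunit they were those of Mrps25 (0.54) and Mrps6 (0.58). The 2 most like were those of Mrpl4 and Mrpl10 (both 0.99) in the large subunit and those of Mrps36 (0.98) and Mrps23 (0.97) in the small subunit. The libraries share depth and tissue, and r is given as a description.

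The 3 paralogues Mrps18a, Mrps18b and Mrps18c replace a single bacterial protein, and Mrps18a is placed in the large subunit in mammalian particles despite its symbol. Mrps18c averaged 326 ± 28.0 TPM in WT BAT, Mrps18a 166 ± 13.7 TPM and Mrps18b 105 ± 8.75 TPM. Each was higher in BAT than in IAT, with log2 fold changes of 0.86, 1.09 and 1.14. Over brain the values were 2.05, 1.56 and 2.25, and over liver they were 0.38, 1.12 and 0.29. Mrpl12, part of the stalk that recruits translation factors and a partner of the mitochondrial RNA polymerase, averaged 373 ± 36.0 TPM in WT BAT, 196 ± 41.5 TPM in WT IAT, 114 ± 4.49 TPM in WT brain and 157 ± 17.1 TPM in WT liver (SD, n = 3 each).

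**Figure D3:**
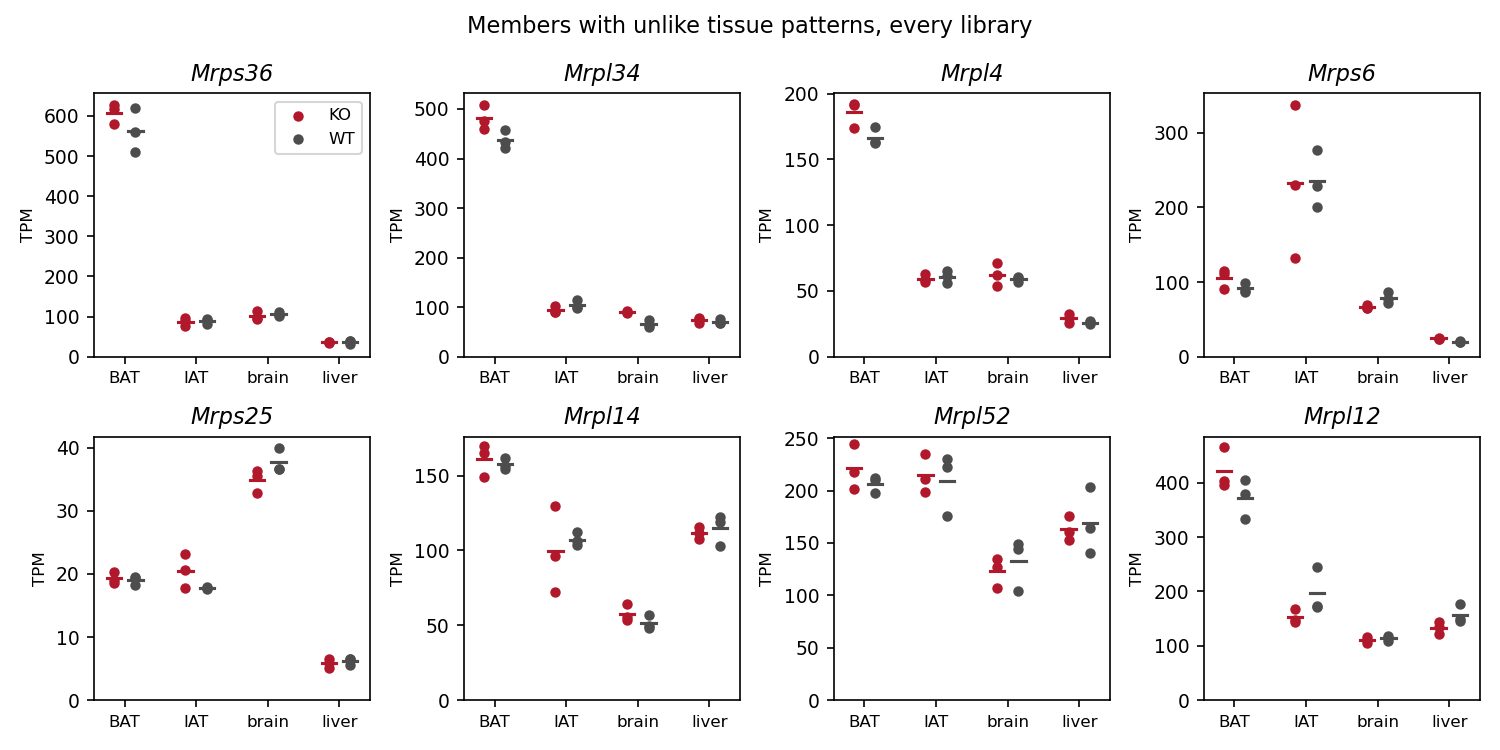
TPM in every KO (red, left) and WT (grey, right) library of each tissue for 8 members, with bars at the mean of 3. Mrps36, Mrpl34 and Mrpl4 peak in BAT, Mrps6 in IAT and Mrps25 in brain, while KO and WT points lie close together in most panels.

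Most genes that serve the mitochondrial ribosome were also higher in BAT than in IAT. All 5 subunits with other symbols (Dap3, Ptcd3, Aurkaip1, Chchd1 and Gadd45gip1) were called higher in BAT over IAT, with a median log2 fold change of 1.09. All 16 mitochondrial translation factors were as well (median 1.31), among them the elongation factor Tufm (2.04, SE 0.11) and the RNA-binding protein Lrpprc (2.24, SE 0.12). So were 19 of 20 mitochondrial aminoacyl-tRNA synthetases (median 1.05) and 21 of 23 ribosome assembly factors (median 0.96). The nuclear oxidative phosphorylation subunits stood further apart, with 81 of 84 called higher and a median of 2.21. Of 79 cytosolic ribosomal protein genes, 3 were called higher and 49 lower in BAT over IAT (median -0.45). Of the 14 nuclear regulators of mitochondrial genes, 8 were called higher and 1 lower (median 0.29), led by Ppara (4.71), Ppargc1b (3.95), Esrra (1.79) and Gabpa (1.39), a DNA-binding subunit of the ETS factor known as NRF2.

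Promoters of mitoribosomal genes are known for sites of NRF1, ETS factors and YY1. RefSeq promoter windows (GRCm38.p6, 250 bases before to 50 after a start) were given for 69 of the 78 members, 75 windows in all. Searched on both strands, the NRF1 motif was in 17.3% of members' windows and 4.6% of all 32851 windows. The ETS letters CCGGAAGT were in 16% and 3.89%, and the YY1 motif was in 9.33% and 0.986%. The ERR letters TCAAGGTCA were in 0% and 0.423%. At least 1 of the 4 was in 41.7% of the 48 large subunit windows, 33.3% of the 27 small subunit windows and 9.31% of all windows. A match is a description of letters only. The 250 bases before the start are shown for Mrps36 and Mrpl34, in which none of the 4 was found, and for 2 BAT-high members with a match, in capitals: the NRF1 motif in Mrps21 (first base at -91) and the ETS letters in Mrpl51 (first base at -90). All are written 5′ to 3′ on the gene's strand.
Mrps36 (chr13:100744660-100744909, minus strand): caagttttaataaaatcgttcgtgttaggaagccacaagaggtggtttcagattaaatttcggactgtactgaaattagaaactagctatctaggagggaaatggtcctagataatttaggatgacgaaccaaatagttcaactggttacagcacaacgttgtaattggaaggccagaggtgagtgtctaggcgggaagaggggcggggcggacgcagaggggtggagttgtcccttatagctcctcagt
Mrpl34 (chr8:71464676-71464925, plus strand): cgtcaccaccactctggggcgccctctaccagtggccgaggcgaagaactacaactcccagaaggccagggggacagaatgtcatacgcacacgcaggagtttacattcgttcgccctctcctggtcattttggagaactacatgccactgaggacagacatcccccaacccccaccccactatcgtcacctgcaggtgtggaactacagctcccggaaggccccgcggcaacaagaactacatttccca
Mrps21 (chr3:95871515-95871764, minus strand): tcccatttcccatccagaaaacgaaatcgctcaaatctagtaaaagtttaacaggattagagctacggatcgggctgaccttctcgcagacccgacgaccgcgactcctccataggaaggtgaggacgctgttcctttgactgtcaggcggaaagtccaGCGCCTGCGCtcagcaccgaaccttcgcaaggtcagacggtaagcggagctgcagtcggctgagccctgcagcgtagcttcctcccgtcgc
Mrpl51 (chr6:125191950-125192199, plus strand): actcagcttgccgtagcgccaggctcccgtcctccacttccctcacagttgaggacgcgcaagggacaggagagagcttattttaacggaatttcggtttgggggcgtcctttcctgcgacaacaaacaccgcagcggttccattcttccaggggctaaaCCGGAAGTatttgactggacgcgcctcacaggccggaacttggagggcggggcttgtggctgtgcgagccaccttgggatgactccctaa

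Loss of Prxl2a was compared with WT in each tissue separately. By edgeR, 0 of the 78 members were called in IAT, BAT, brain or liver, where 0%, 0.54%, 0.0487% and 1.11% of all genes were. At an unadjusted p under 0.05 the members numbered 0 in IAT, 40 in BAT (25 large, 15 small), 1 in brain and 10 in liver, where 15.8%, 18.5%, 6.58% and 16.1% of all genes were. The share of members was thus above that of all genes in BAT and below it in the other 3 tissues. DESeq2 called 1 member, in BAT, where it called 4.12% of all genes. The median standard error of a member's log2 fold change was 0.09 in BAT and 0.17 in IAT for the large subunit. On simulated data 64 of 100 seeded 2-fold changes were recovered in BAT and 17 in IAT. Changes of 0.20 on the log2 scale are smaller than those seeded and could go uncalled with 3 libraries against 3.

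In KO BAT most members lay slightly above WT BAT on the TMM scale. The mean log2(CPM + 1) of the 49 large subunit genes was 6.22, 6.28 and 6.33 in KO BAT, against 6.10, 6.08 and 6.03 in WT BAT. That of the 29 small subunit genes was 6.15, 6.25 and 6.28 in KO BAT, against 6.03, 6.07 and 6.005 in WT BAT, and for neither subunit did the groups overlap. Of the 78 fitted changes 77 were positive, where 6168 of 12588 were over all genes, with a median log2 fold change of 0.20 for the large subunit (1.15-fold), 0.21 for the small subunit and -0.01 for all genes. In 54 members every KO library was above every WT library, where 14.3% of all genes were, and in 0 members was every KO library below, where 11.3% of all genes were. Leaving out each BAT library in turn left 75 to 78 members with a positive change.

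By TPM the same direction was smaller. The summed TPM of the members was 12610, 13063 and 13331 in KO BAT, against 12068, 12333 and 12108 in WT BAT, and the groups did not overlap. For the large subunit alone the sums did not overlap either, at 7948 to 8363 TPM in KO BAT and 7502 to 7628 TPM in WT BAT. Those of the small subunit did overlap, at 4662 to 4984 TPM in KO BAT and 4445 to 4704 TPM in WT BAT. On the log2(TPM + 1) scale 65 of 78 members were higher in KO BAT, with medians of 0.09 for both subunits and -0.09 for all genes, so that the distance from all genes was 0.18. In 19 members every KO library was above every WT library by TPM, where 6.54% of all genes were, and 0 lay below, where 19.1% of all genes did.

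Mrpl47, a large subunit protein related to bacterial L29, had the smallest p in BAT. It had 44.6, 49.1 and 47.4 CPM in KO BAT, against 37.6, 36.6 and 35.5 CPM in WT BAT, with a log2 fold change of 0.36 (SE 0.08, adjusted p = 0.0946 in edgeR). Mrpl50 had 120, 126 and 149 CPM in KO BAT, against 107, 92.6 and 89.0 CPM in WT BAT, with a log2 fold change of 0.45 (SE 0.11). Its adjusted p was 0.128 in edgeR and 0.0262 in DESeq2, which called it. Mrps7, whose bacterial relative starts the assembly of the small subunit head, had 145, 152 and 153 CPM in KO BAT, against 126, 125 and 114 CPM in WT BAT (log2 fold change 0.30, adjusted p = 0.130); it overlaps Gga3 (0.17, adjusted p = 0.454) and Mif4gd (0.49, adjusted p = 0.109), so its value is uncertain without knowing whether counting used strand. In each of these genes the KO libraries lay above the WT libraries, and none passed edgeR's threshold. Mrpl19, Mrps35 and Mrps2 followed, with log2 fold changes of 0.33, 0.31 and 0.29 and adjusted p-values of 0.143, 0.148 and 0.172.

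**Figure D4:**
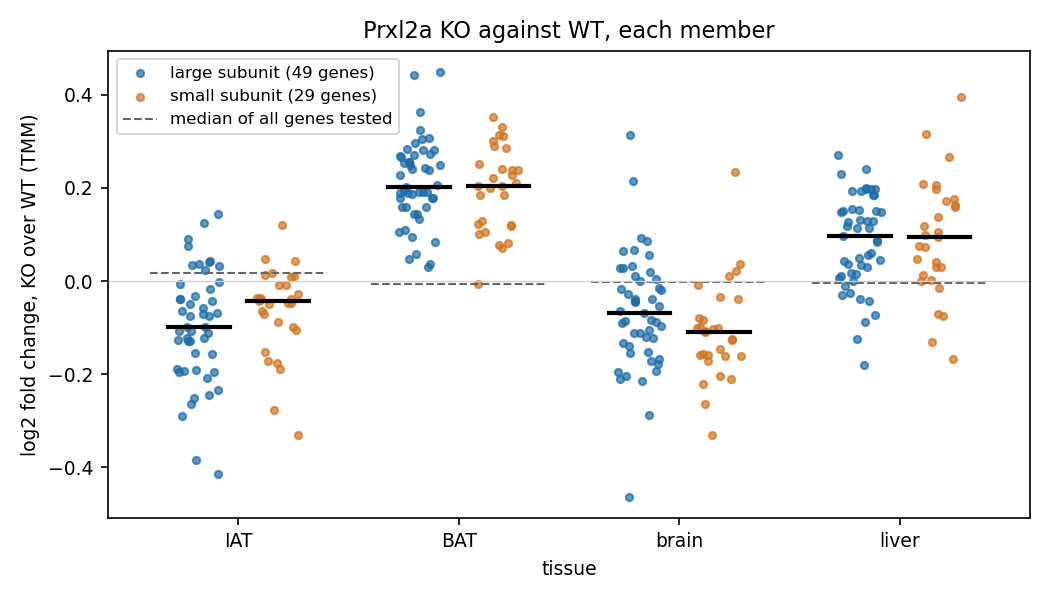
Log2 fold change, KO over WT, of each member in each tissue on the TMM scale, with large subunit genes in blue, small subunit genes in orange, black bars at the members' medians and dashed lines at the median of all genes tested. The members sit above 0 in BAT with 1 exception, at a median of 0.20 for the large subunit, and spread on both sides of 0 elsewhere.

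Other gene groups lay on the same side in KO BAT. Of 83 oxidative phosphorylation subunits 81 had a positive change (median 0.18), as did 76 of 79 cytosolic ribosomal proteins (median 0.17), 14 of 16 mitochondrial translation factors (median 0.14) and all 5 mitoribosome subunits with other symbols (median 0.27), and none of these genes was called. The 12 adipocyte markers summed to 13984 to 17151 CPM in KO BAT and 12201 to 13624 CPM in WT BAT, and 10 of the 12 had a higher mean in KO BAT. All 7 markers of stroma and endothelium had a lower mean in KO BAT, and they summed to 790 to 943 CPM in KO BAT and 1105 to 1395 CPM in WT BAT. All 9 macrophage markers and all 11 muscle markers had a lower mean in KO BAT as well. The macrophage markers summed to 142 to 190 CPM in KO BAT and 144 to 437 CPM in WT BAT, and the muscle markers to 7.97 to 116 CPM in KO BAT and 8.84 to 2098 CPM in WT BAT. No macrophage, muscle, stroma or adipocyte marker was at 0 in all libraries of either BAT group. Their part in the members' shift was not tested.

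**Figure D5:**
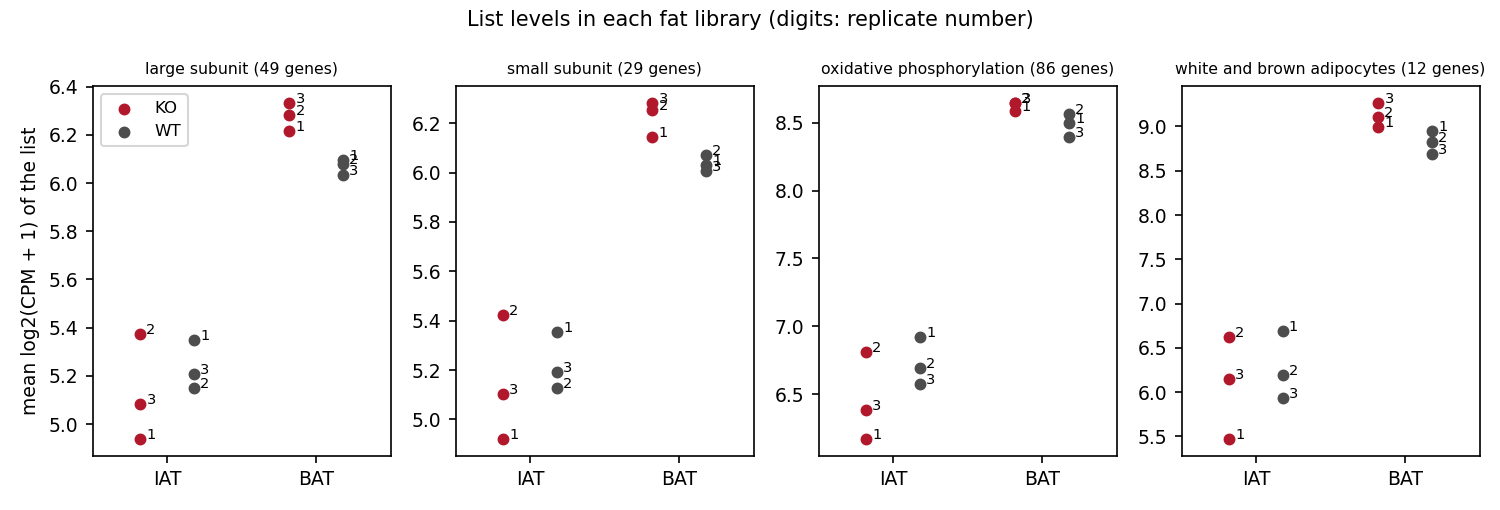
Mean log2(CPM + 1) of 4 gene lists in each KO (red, left) and WT (grey, right) library of IAT and BAT, with the replicate number beside each point. In BAT all KO points lie above all WT points in every panel, whereas in IAT KO library 2 stands above KO libraries 1 and 3 in every panel.

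In IAT the direction rested on single libraries. The mean log2(CPM + 1) of the large subunit genes was 4.94, 5.37 and 5.08 in KO IAT, against 5.35, 5.15 and 5.21 in WT IAT, so the groups overlapped. In 2 members every KO library was above every WT library and in 0 below, where 8.81% and 9.65% of all genes were. Of the 78 changes 61 were negative, with medians of -0.10 for the large and -0.04 for the small subunit. Without the lymphocyte-rich KO libraries 1 and 3, which leaves 1 KO library, 71 of the 78 were positive, with medians of 0.16 and 0.23. With library totals alone 51 were positive and by TPM 34 were. The 11 lymphocyte markers summed to 6.44 to 1673 CPM in KO IAT, against 12.3 to 18.5 CPM in WT IAT, with none at 0 in either group. Other lists moved in IAT too. The 12 adipocyte markers summed to 7331, 23057 and 13934 CPM in KO IAT libraries 1 to 3, against 10280 to 16073 CPM in WT IAT. Of these 12 markers, 5 had a higher mean in KO IAT. A higher mean in KO IAT was also found for 2 of 86 oxidative phosphorylation subunits and 75 of 79 cytosolic ribosomal proteins. All 9 macrophage markers had a lower mean in KO IAT and summed to 1132 to 1829 CPM in KO IAT, against 1627 to 5540 CPM in WT IAT. All 6 mammary epithelium markers were lower in mean as well, at 285 to 464 CPM in KO IAT and 433 to 697 CPM in WT IAT, as were 5 of 7 markers of stroma and endothelium, at 3140 to 5173 CPM in KO IAT and 4722 to 9450 CPM in WT IAT. The 11 muscle markers, all lower in mean, summed to 7.47 to 43.3 CPM in KO IAT, with Ckm at 0, and to 6.82 to 4247 CPM in WT IAT. The part of these cells in the members' values was not tested beyond the removal of libraries. Mrpl42, a large subunit gene, had the smallest p, with 41.1, 61.5 and 46.4 CPM in KO IAT and 71.5, 62.6 and 60.4 CPM in WT IAT (log2 fold change -0.38, SE 0.18, adjusted p = 0.353).

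In liver and brain the shifts were smaller than in BAT. In liver 64 of 78 members had a positive change, with medians of 0.10 for the large and 0.09 for the small subunit, and in 20 members every KO library was above every WT library and in 0 below, where 10.6% and 11% of all genes were. By TPM 6 were above and 6 below in this way, where 4.76% and 18.9% of all genes were. On the log2(TPM + 1) scale 38 of 78 were higher, with medians of 0.00 and -0.01 beside -0.07 for all genes. In brain 60 of 78 had a negative change, with medians of -0.07 and -0.11; by TPM 28 were positive. In 9 members every KO brain library was below every WT brain library and in 2 above, where 5.99% and 6.53% of all genes were. Brain libraries also differed in the regions they held. The 7 striatum markers had a mean log2(CPM + 1) of 4.21, 6.30 and 4.20 in KO brain, against 6.77, 6.75 and 4.27 in WT brain. The 6 choroid plexus markers summed to 143, 7.86 and 72.1 CPM in KO brain, against 37.7, 66.0 and 521 CPM in WT brain. The part of these differences in the members' values was not tested.

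Mrps6 had the smallest p in both of these tissues, on opposite sides. It had 8.37, 8.45 and 8.99 CPM in KO liver, against 7.11, 6.40 and 6.11 CPM in WT liver (log2 fold change 0.40, SE 0.12, adjusted p = 0.158). It had 11.02, 13.8 and 12.7 CPM in KO brain, against 14.98, 14.7 and 17.5 CPM in WT brain (log2 fold change -0.33, SE 0.13, adjusted p = 0.749). The groups did not overlap in either tissue, and neither value passed the test. Mrps18b showed the same arrangement, with log2 fold changes of 0.27 in liver (adjusted p = 0.193) and -0.21 in brain (adjusted p = 0.758). Mrpl44 overlaps Wdfy1, an endosomal protein gene that was called higher in KO BAT (log2 fold change 1.23, adjusted p = 0.0105), KO brain (1.17, adjusted p = 0.0314) and KO liver (0.65, adjusted p = 0.0207), with 0.81 in IAT (adjusted p = 0.172). The values of Mrpl44 are therefore uncertain in all 4 tissues. It had 49.5, 50.2 and 58.9 CPM in KO BAT, against 45.6, 44.0 and 44.6 CPM in WT BAT.

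Whether the KO change differed between tissues was tested in 1 fit of all 24 libraries. By edgeR 0 of 78 members were called, where 0.421% of all genes were, and 11 had an unadjusted p under 0.05, where 18.9% of all genes did, with the smallest adjusted p for Mrpl47 (0.172). DESeq2 called 1 member, Mrpl47 (adjusted p = 0.0385), and 7.92% of all genes. Without KO IAT library 2, 19 members were called, where 18.1% of all genes were: the count depends on that library.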

How the data were processed

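RNA-seq libraries were made with an mRNA-seq kit from frozen tissue, per the labels' protocols. The authors deposited 1 table that holds estimated counts, not normalised, and TPM, as its headers say (per the file headers). The submitters' processing notes list RSEM 1.3.1, Bowtie2 2.3.4.3 and DESeq2 1.4.5 with build GRCm38.p6. The annotation and any strand setting are not stated. Of the 78 members, 20 overlap another counted gene, among them Mrpl14, so their values may include reads of that gene. Another 48 columns with values per sample were left aside.

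Counts were rounded and tested with edgeR 4.0.16 (R 4.3.3; TMM, filterByExpr, quasi-likelihood F-test, Benjamini-Hochberg over all genes, threshold 0.05). Each tissue was fitted on its 6 libraries, WT tissues on 12, and differences in KO change on 24. Standard errors come from the F statistic. Alternatives were RLE, library totals, no filter, DESeq2 1.42.0, limma 3.58.1 with a trend on log2 TPM plus a pseudocount of 1 or 0.1 (genes averaging 1 TPM or more), all 24 libraries, a replicate block and leaving out each library. The removal of libraries rich in lymphocyte or muscle markers was added after seeing the data. On simulated data with 2-fold changes, 64 of 100 seeded genes were recovered in BAT, 17 in IAT, 81 in brain and 80 in liver. False calls in these runs numbered 11 in BAT, 11 in IAT, 9 in brain and 5 in liver. Changes as small as the members' median in KO BAT were not seeded, so their recovery is not known.

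The members, gene lists and rules were chosen with earlier results of these data known. Named genes were, per subunit, the 3 smallest p-values per KO comparison, the 3 largest and smallest WT changes of BAT over liver and over brain, the 3 highest and lowest WT levels, the 2 most and least typical profiles, Mrps18a, Mrps18b, Mrps18c, Mrps36 and Mrpl12, and up to 4 genes of each other list; Mrpl44 was added after its values were seen. Not all of these are printed. The 3 mice per genotype are the replicates.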

Additional observations from a re-analysis of the deposited data

How the results depend on the processing

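For the KO comparisons, 0 members were called in IAT, brain and liver under all alternatives; in BAT DESeq2 called 1, and it called 1 for the difference between tissues. Median log2 fold changes, KO over WT, were as follows. With library totals alone the large subunit gave 0.022 in IAT, 0.15 in BAT and 0.046 in liver, and the small subunit 0.15 in BAT and 0.046 in liver. With TPM + 1 or TPM + 0.1 the large subunit gave 0.095 or 0.095 in BAT, -0.0326 or -0.0330 in brain and 0.0046 or 0.0046 in liver, and the small subunit 0.093 or 0.094 in BAT and -0.0101 or -0.0104 in liver. Without KO IAT libraries 1 and 3 the medians in IAT were 0.16 and 0.23. Leaving out each library in turn gave -0.23 to -0.012 (large) and -0.24 to 0.063 (small) in IAT, -0.10 to -0.033 and -0.16 to -0.055 in brain, and 0.047 to 0.14 and 0.049 to 0.16 in liver; 0 to 19 members differed between tissues.

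Between WT tissues, medians for the large and small subunit moved as follows. BAT over IAT gave 0.97 and 0.87 with library totals, 0.80 and 0.69 with TPM + 1 and 0.84 and 0.70 with TPM + 0.1. BAT over brain gave 1.88 and 1.85 with RLE and with DESeq2, 1.61 and 1.58 with library totals, 0.89 and 0.77 with TPM + 1 and 0.90 and 0.79 with TPM + 0.1. BAT over liver gave 0.67 and 0.74 with RLE and with DESeq2, 1.52 and 1.59 with library totals, 1.41 and 1.48 with TPM + 1 and 1.46 and 1.55 with TPM + 0.1. Liver over brain gave 1.15 and 1.12 with RLE and with DESeq2, 0.025 and 0.0038 with library totals, -0.63 and -0.71 with TPM + 1 and -0.63 and -0.74 with TPM + 0.1. Leaving out each library gave 1.89 to 2.04 and 1.90 to 2.01 for BAT over brain, 0.65 to 0.79 and 0.72 to 0.88 for BAT over liver, and 1.19 to 1.28 and 1.14 to 1.27 for liver over brain. In BAT over IAT, BAT over brain and BAT over liver 65 to 78 members were called under the alternatives run.

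Some single genes turned. In BAT over brain, TPM + 1 and TPM + 0.1 gave -0.39 and -0.41 for Mrpl19, -0.23 and -0.24 for Mrpl41, -0.95 and -0.98 for Mrps25, -0.50 and -0.51 for Mrps26 and -0.18 and -0.18 for Mrps12, and library totals gave -0.19 for Mrps25. In BAT over liver, library totals, TPM + 1 and TPM + 0.1 gave 0.34, 0.30 and 0.30 for Mrpl52, 0.49, 0.39 and 0.40 for Mrpl15, 0.52, 0.46 and 0.46 for Mrpl14 and 0.74, 0.61 and 0.62 for Mrps10, which ranged over -0.14 to 0.032 when single libraries were left out. Mrps12 there was -0.057 with RLE and -0.057 with DESeq2, and it ranged over -0.077 to 0.099 when single libraries were left out. Mrpl52 in BAT over IAT was -0.0113 with both TPM settings, and Mrps18a in IAT was 0.069 without KO libraries 1 and 3. The cause was not tested.

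Whether the replicate numbers mark a shared mouse could not be settled with 3 libraries per group. Deviations of same-numbered KO and WT libraries of a tissue correlated at -0.22 to 0.34, and those of different number at -0.31 to 0.22. Between tissues of the same genotype the values were -0.32 to 0.26 for the same number and -0.35 to 0.48 for different numbers. The main fits of 12 and 24 libraries treated the libraries as independent. With the replicate block, 0 members were called in any KO comparison, and the medians in BAT were 0.20 for both subunits. With 3 libraries per group and standard errors near 0.09 in BAT, changes of the size seen there could go uncalled, and their recovery is not known.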
